A study of Mus musculus with 6 samples.

Results

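The genes described are 10 identity genes of macrophages and dendritic cells, measured in whole kidney of male C57BL/6 mice: Csf1r, Flt3, Adgre1, Itgax, Cx3cr1, Mrc1, Cd163, Cd68, Lyz2 and Mpeg1. They were matched to array probes through RefSeq transcript accessions, which gave 15 of the 55681 probes and 9 of the 10 genes. Cd68 had no probe matched in this way and was not analysed here. Kidneys of mice aged 20 months (aged, 3 arrays) were set against kidneys of mice aged 2 months (young, 3 arrays), with no treatment or allele named for either age, and total RNA was hybridised to single-colour Agilent arrays. Each array held its own RNA preparation, but whether these were taken from separate mice is not stated, so the p-values measure only the spread between preparations, which may be technical. The comparison asked which of these genes differ between aged and young kidney.

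Macrophages and dendritic cells are the phagocytes that lie between the kidney's tubules, where they clear debris and present antigen. The growth factor receptor Csf1r keeps macrophages alive, and the receptor Flt3 drives the formation of dendritic cells from bone marrow precursors. In mouse kidney the markers overlap, and many resident phagocytes carry the macrophage protein F4/80 together with CD11c and the fractalkine receptor. In whole-kidney RNA, more cells of a type and more RNA per cell cannot be told apart.

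All values are normalised log2 signals, that is, the log2 of the background-subtracted signal minus the 75th percentile of its array, so 0 stands for the 75th percentile. Changes are aged minus young. The test was limma, two-sided, with Benjamini-Hochberg adjustment over the 14549 genes tested and a threshold of 0.05. The slide layout was read from the position numbers that end the scan names. By these, the 6 arrays shared 1 slide, with aged kidneys in row 2 and young kidneys in row 1. An effect of the row and an effect of age therefore cannot be told apart. The 75th percentile of signal was 4498, 4205 and 2702 on aged replicates 1, 2 and 3. On the young replicates it was 4366, 4061 and 2892. Well above background were 62.9%, 55.7% and 46.3% of probes on the aged arrays, and 72.9%, 69.0% and 55.3% on the young arrays. Replicate numbers match slide columns, so both measures fell from column 1 to column 3 at both ages. Precision is limited by the number of arrays. As a check of the tissue, all 12 kidney markers listed, among them Umod and Nphs1, were well above background on all 6 arrays.

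Itgax and Flt3 rose in aged kidney, and no member fell. Of the 8 members that could be tested, 2 passed the threshold, 6 did not, and 0 were lower. Over all tested genes 3.37% passed, 1.98% as higher and 1.4% as lower. The change was above 0 for 8 of 8 tested members, against 47.2% of all tested genes, and it ranged between 0.07 and 0.99 with a median of 0.52, against -0.01 for all tested genes. The ages did not overlap for 5 of the 8, all with aged kidney higher, where 21.9% of all tested genes did not overlap and 10.4% did so with aged kidney higher. An unadjusted p under 0.05 was reached by 5 of the 8, against 7.97% of all tested genes with aged kidney higher. The 8 tested members were well above background on all 6 arrays, so none entered the test through 1 age alone. The count of 2 became 0 with no scaling between arrays and with no filter on dim probes, 1 with normexp background correction and with slide columns as a block, and 1 without aged replicate 2 or 3 or young replicate 1 or 2. It became 3 without young replicate 3, with median centring, with array weights, with a trended robust variance and with a filter for signal on all 6 arrays.

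**Figure D1:**
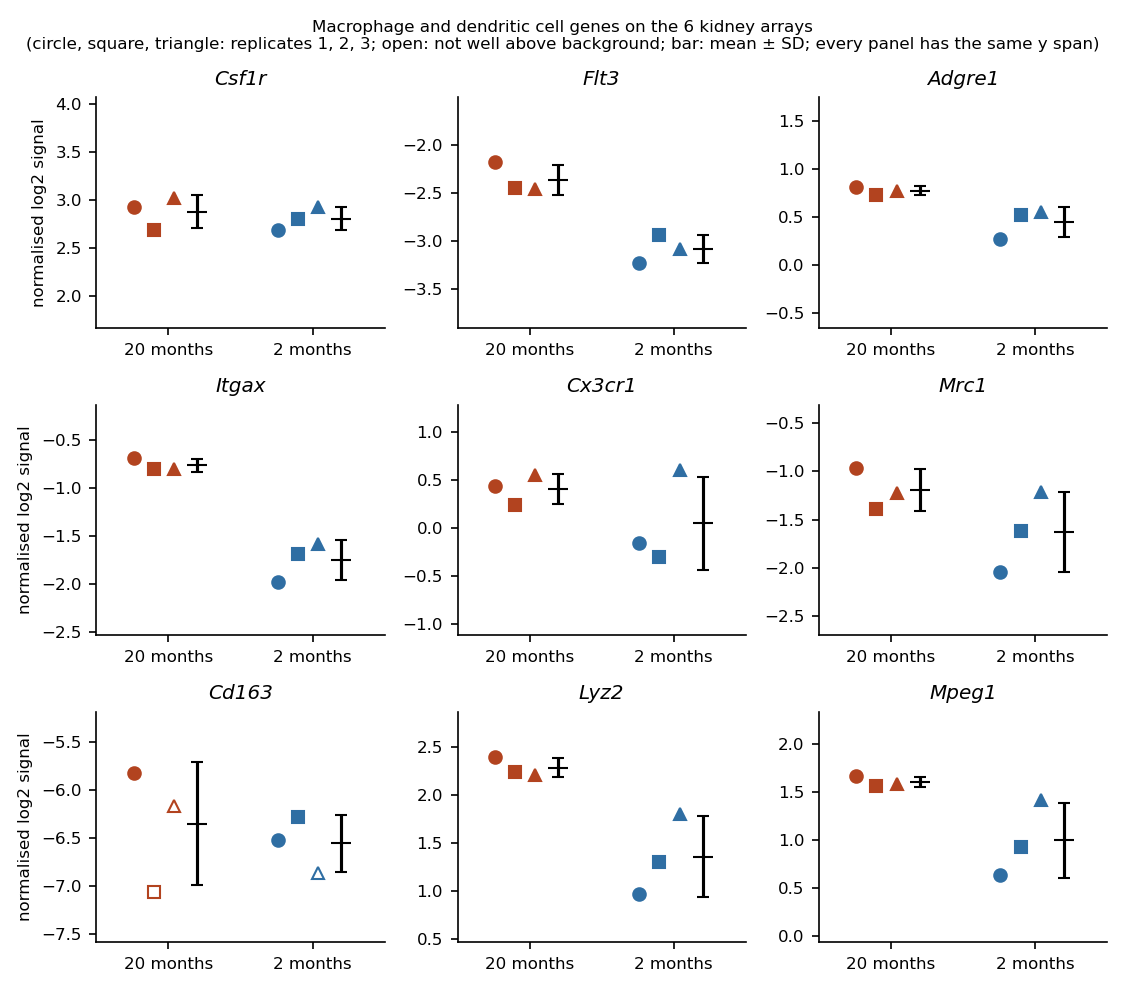
Normalised log2 signal (y axis, 0 is the array's 75th percentile) of the 9 measured genes on the aged arrays (20 months, left) and the young arrays (2 months, right). Points are single arrays, open where the probe was not well above background, and bars are the mean ± SD of 3 arrays. For Itgax, Flt3, Adgre1, Lyz2 and Mpeg1 every aged array lies above every young array, and for Csf1r, Cx3cr1 and Mrc1 the ages overlap.

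The promoters of Itgax and Flt3, the genes that passed the test, and of Mrc1 are shown with their sequence from RefSeq build GRCm38.p6, 250 bases before to 50 after the start of the gene. The RefSeq table held 8 of the 10 members, with no entry for Csf1r and Adgre1. Capitals mark TTCCTC, the reverse complement of GAGGAA, which is the core motif of PU.1, the transcription factor encoded by Spi1 that macrophages and dendritic cells depend on. The Itgax window lies at chr7:128129300-128129599 on the plus strand, the Flt3 window at chr5:147400440-147400739 on the minus strand and the Mrc1 window at chr2:14229164-14229463 on the plus strand. Each is written 5′ to 3′ in the direction of the gene.
Itgax: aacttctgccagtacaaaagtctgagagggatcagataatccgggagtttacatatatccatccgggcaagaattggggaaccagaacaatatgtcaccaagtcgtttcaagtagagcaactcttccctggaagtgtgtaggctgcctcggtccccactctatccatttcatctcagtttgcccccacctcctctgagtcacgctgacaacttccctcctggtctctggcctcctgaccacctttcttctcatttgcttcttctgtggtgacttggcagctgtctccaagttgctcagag
Flt3: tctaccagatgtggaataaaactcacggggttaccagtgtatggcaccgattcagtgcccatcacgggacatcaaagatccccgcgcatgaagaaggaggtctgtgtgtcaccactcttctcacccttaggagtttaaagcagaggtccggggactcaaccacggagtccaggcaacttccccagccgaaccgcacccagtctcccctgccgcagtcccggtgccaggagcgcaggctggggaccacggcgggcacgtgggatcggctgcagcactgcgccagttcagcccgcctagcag
Mrc1: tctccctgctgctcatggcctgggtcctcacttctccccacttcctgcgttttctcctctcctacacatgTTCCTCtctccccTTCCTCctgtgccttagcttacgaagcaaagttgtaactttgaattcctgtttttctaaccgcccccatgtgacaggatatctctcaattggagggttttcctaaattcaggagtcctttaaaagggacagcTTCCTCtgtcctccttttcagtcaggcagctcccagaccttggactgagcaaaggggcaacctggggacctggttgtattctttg

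GAGGAA, searched on both strands, was found in 2 of the 8 member promoters, those of Mrc1 and Cd68, and in 28.3% of the 32851 promoters of the table. Mrc1 held it 3 times on the minus strand, at bases -180 to -175, -167 to -162 and -35 to -30 from the start. The longer form GAGGAAGT, which contains GAGGAA, was in 0 of the 8 and in 3.2% of all promoters. The base composition of the windows differed: the Flt3 window had 61% G and C with 18 CpG sites and the Itgax window 50% with 5 CpG sites. The Mrc1 window had 50.3% with 3 CpG sites and the Lyz2 window 44.3% with 1, where the median over all promoters was 7 CpG sites. A match is a description of these letters and says nothing of binding in these kidneys.

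Of the growth factor receptors, Flt3 rose and Csf1r did not pass the test. Flt3, the receptor of Flt3 ligand on dendritic cell precursors and dendritic cells, had normalised log2 signals of -2.18, -2.45 and -2.47 on the aged arrays, against -3.23, -2.94 and -3.09 on the young arrays. Every aged array was above every young array. It was 1.65-fold higher in aged kidney (log2 change 0.72 ± 0.13, SE, n = 3 arrays per age, limma adjusted p = 0.0290, 95% interval 0.42 to 1.02). Within slide columns 1, 2 and 3, which each held 1 aged and 1 young array, the difference was 1.05, 0.49 and 0.62. The call rested on the full set of arrays, since the limma adjusted p was 0.0379 without aged replicate 1, 0.0859 and 0.0611 without aged replicates 2 and 3, and 0.121, 0.0583 and 0.0801 without young replicates 1, 2 and 3. It also ended with normexp background correction, where the log2 change was 0.56 (adjusted p = 0.129), with no filter on dim probes (0.152), with no scaling between arrays (0.748) and with slide columns, which match the replicate numbers, fitted as a block (0.0795). The second Flt3 probe was not well above background on any of the 6 arrays and was not tested.

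Csf1r, the receptor of the macrophage growth factors CSF1 and IL-34, had values of 2.93, 2.69 and 3.02 on the aged arrays, against 2.69, 2.81 and 2.93 on the young arrays. The ages overlapped throughout. Its log2 change was 0.07 ± 0.13 (SE, n = 3 arrays per age, limma adjusted p = 0.834), and the 95% interval ran between -0.23 and 0.37, so a difference of up to that size in either direction was not excluded. With normexp background correction its sign turned (-0.07). The 3 Csf1r probes gave log2 changes of 0.07, 0.07 and 0.05.

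Among the adhesion and chemokine receptors, Itgax rose, while Adgre1 and Cx3cr1 did not pass the test. Itgax, the alpha chain of the integrin CD11c/CD18 found on dendritic cells and on many kidney macrophages, had normalised log2 signals of -0.68, -0.80 and -0.80 on the aged arrays, against -1.98, -1.68 and -1.58 on the young arrays. The lowest aged array was above the highest young array. It was 1.98-fold higher in aged kidney (log2 change 0.99 ± 0.13, SE, n = 3 arrays per age, limma adjusted p = 0.0111, 95% interval 0.69 to 1.29), the largest change among the 8 tested members. Its call held whichever array was left out, with adjusted p between 0.0184 and 0.0481, and the difference within slide columns 1, 2 and 3 was 1.30, 0.88 and 0.78. It ended with no filter on dim probes (adjusted p = 0.104) and with no scaling between arrays (0.210).

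Adgre1, which encodes the macrophage surface protein F4/80, had values of 0.82, 0.72 and 0.77 on the aged arrays, against 0.27, 0.52 and 0.55 on the young arrays. The ages did not overlap, but the log2 change of 0.33 ± 0.11 did not pass the test over all genes (limma adjusted p = 0.201, 95% interval 0.06 to 0.59). Cx3cr1, the receptor of the chemokine fractalkine, had values of 0.43, 0.24 and 0.55 on the aged arrays, against -0.16, -0.30 and 0.60 on the young arrays. Young replicate 3 was the highest of all 6 arrays for this gene, and the log2 change was 0.36 ± 0.23 (limma adjusted p = 0.485, 95% interval -0.18 to 0.89). The Cx3cr1 change was 0.63 without young replicate 3 (adjusted p = 0.0873) and 0.18 without young replicate 2 (adjusted p = 0.821).

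Of the scavenger receptors, Mrc1 did not pass the test and Cd163 could not be tested. Mrc1, the mannose receptor CD206 of tissue macrophages, had values of -0.96, -1.39 and -1.22 on the aged arrays, against -2.05, -1.62 and -1.22 on the young arrays. Young replicate 3 lay within the aged range, and the log2 change was 0.43 ± 0.22 (limma adjusted p = 0.356, 95% interval -0.07 to 0.93). It was 0.22 without young replicate 1 (adjusted p = 0.730). Cd163, the receptor that takes up haemoglobin bound to haptoglobin, was at the edge of detection. It was well above background on 1 of 3 aged arrays and on 2 of 3 young arrays and was not tested. Its normalised log2 signals were -5.82, -7.07 and -6.16 on the aged arrays, against -6.52, -6.28 and -6.87 on the young arrays, with overlap between the ages.

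The lysosomal and antimicrobial genes Lyz2 and Mpeg1 were higher on every aged array than on any young array, but neither passed the test. Lyz2, the lysozyme of macrophages and other myeloid cells, had normalised log2 signals of 2.40, 2.25 and 2.21 on the aged arrays, against 0.97, 1.31 and 1.80 on the young arrays. The SD was 0.10 over the aged arrays and 0.42 over the young arrays (n = 3 each). Its fold was 1.90 (log2 change 0.93 ± 0.20, SE, n = 3 arrays per age, limma adjusted p = 0.0539, 95% interval 0.46 to 1.39), just outside the threshold. It passed without young replicate 3 (log2 change 1.15, adjusted p = 0.0239), with median centring (0.00582), with a trended robust variance (0.0136), with a filter for signal on all 6 arrays (0.0253) and with array weights (0.0356). Lyz1, the near-identical lysozyme of intestinal Paneth cells, had a log2 change of 0.46 ± 0.18 (adjusted p = 0.237), and the probes of the 2 lysozyme genes may share signal, so the value of each is uncertain.

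Mpeg1, which encodes perforin-2, a pore-forming protein that acts on engulfed bacteria, had values of 1.67, 1.56 and 1.59 on the aged arrays, against 0.64, 0.93 and 1.41 on the young arrays. Its fold was 1.52 (log2 change 0.61 ± 0.19, limma adjusted p = 0.151, 95% interval 0.17 to 1.04). As for Lyz2, young replicate 3 was closest to the aged arrays, and without it the Mpeg1 change was 0.82 (adjusted p = 0.0454).

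Fitted probe by probe, with adjustment over 30826 tested probes, the members had fewer calls and the same directions. Of the 12 member probes tested, 1 passed, that of Itgax (limma adjusted p = 0.0160), where 2.09% of all probes passed in either direction and 1.48% as higher. The Flt3 probe had an adjusted p of 0.0507 in this fit. The ages did not overlap for 6 of the 12, all with aged kidney higher, against 8.61% of all tested probes, and the change was above 0 for 12 of 12. The second Adgre1 probe gave a log2 change of 0.50 ± 0.19 beside 0.33 for the first, and the second Cx3cr1 probe 0.25 ± 0.28 beside 0.36. The second Mpeg1 probe was well above background on 1 aged and 2 young arrays and was not tested.

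**Figure D2:**
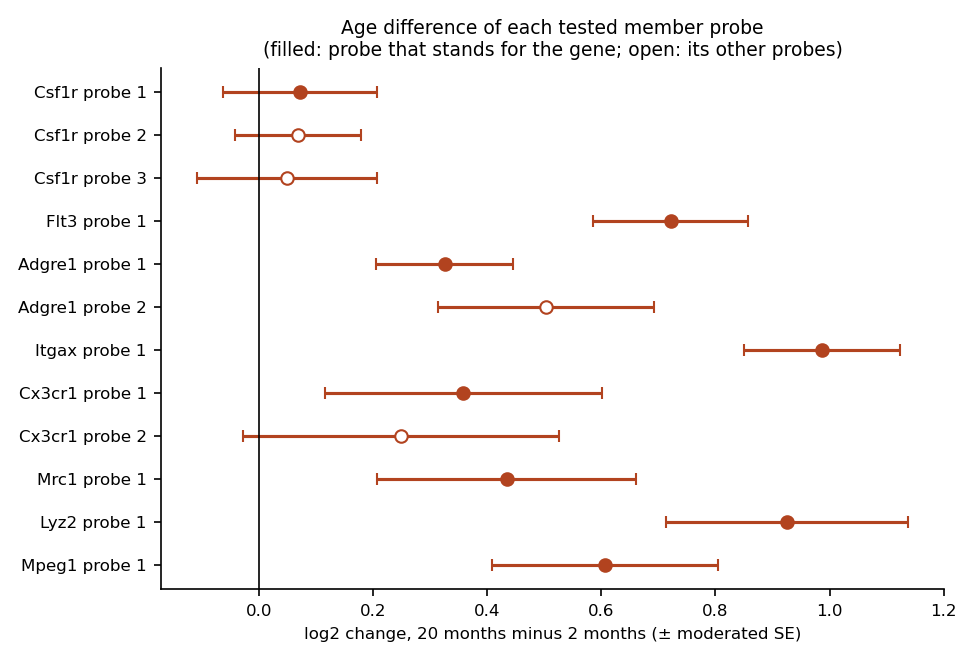
Log2 change (x axis, aged minus young, ± moderated SE) of the 12 tested probes, with the probe that stands for the gene filled and other probes of the same gene open. The 3 Csf1r probes lie near 0, and the Itgax, Lyz2 and Flt3 probes lie farthest to the right at 0.99, 0.93 and 0.72.

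The members were next compared with each other. In 28 pairs of members, the difference between the 2 genes on each array was compared between ages with a two-sided exact permutation test, for which 0.1 is the smallest p that 3 arrays against 3 allow and 0.2 was the smallest after adjustment over the pairs. No pair could therefore pass, and 14 of the 28 pairs were at the smallest unadjusted p of 0.1. The change of Csf1r minus that of Itgax was -0.91 (exact permutation p = 0.1, adjusted p = 0.2). For Csf1r it was -0.85 against Lyz2 and -0.65 against Flt3, with the same p. The change of Itgax minus that of Mrc1 was 0.55 (exact permutation p = 0.1), while the change of Itgax minus that of Lyz2 was 0.06 (exact permutation p = 1).

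Across arrays, the median of the members, each centred on its own mean, was 0.41, 0.19 and 0.27 on aged replicates 1, 2 and 3, against -0.57, -0.29 and 0.03 on young replicates 1, 2 and 3. The same median over all tested genes was between -0.03 and 0.04 on the aged arrays and between 0.00 and 0.02 on the young arrays. Young replicate 1 was therefore the lowest and young replicate 3 the closest to the aged arrays. The spread between young arrays was widest for Lyz2, Mpeg1, Cx3cr1 and Mrc1, with SDs of 0.42, 0.39, 0.48 and 0.42 on the young arrays beside 0.10, 0.05, 0.16 and 0.22 on the aged arrays. The median of the pan-leukocyte markers was -0.52, -0.17 and -0.17 on the same young arrays, and the 75th percentile of signal was 4366, 4061 and 2892 on them. Their part in the spread was not tested.

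**Figure D3:**
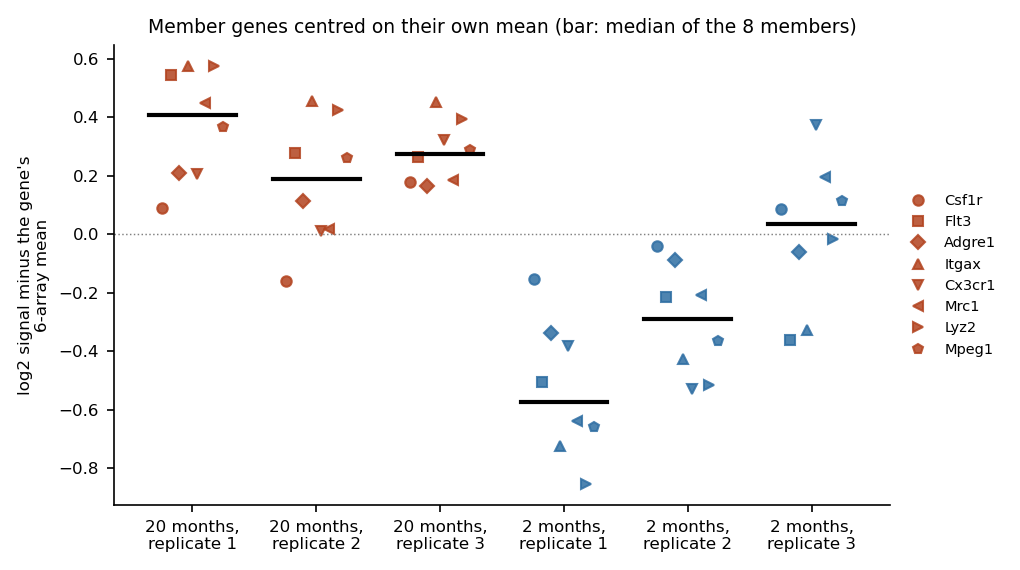
Centred log2 signal (y axis) of each tested member and their median on the 3 aged arrays (left) and the 3 young arrays (right). The median is 0.41, 0.19 and 0.27 on the aged arrays and -0.57, -0.29 and 0.03 on the young arrays.

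The ligands and partner receptors of these cells showed no called change. Of 11 listed genes, 9 were tested with limma and 0 passed. Over all tested genes 3.37% passed, and with 9 genes a count of 0 cannot be told apart from that share. The median log2 change was 0.33. An unadjusted p under 0.05 was reached by 5 of the 9, where 17.1% of all tested genes reached it in either direction. Under each alternative 0 or 1 of the 9 passed. Csf1, the growth factor of macrophages, had a log2 change of 0.34 ± 0.10 (adjusted p = 0.143), and Il34, the second ligand of Csf1r, of 0.46 ± 0.16 (adjusted p = 0.195). With the mean of its probes Csf1 had 0.72 and passed (adjusted p = 0.0176). Ccl2, the chemokine that draws monocytes through Ccr2, had a log2 change of 1.18 ± 0.27 (adjusted p = 0.0607) and passed under 6 of the 18 alternatives. Csf2rb2, a beta chain of the interleukin-3 receptor, had 0.63 ± 0.19 (adjusted p = 0.147). Csf2rb, also listed, went the other way at -0.32 ± 0.18 (adjusted p = 0.423), and Csf2ra was at 0.07 ± 0.16 (adjusted p = 0.867). Changes were above 0 for 7 of the 9, against 47.2% of all tested genes. Flt3l and Cx3cl1, named here because they encode the ligands of Flt3 and Cx3cr1, had log2 changes of -0.06 ± 0.18 (adjusted p = 0.911) and 0.04 ± 0.13 (adjusted p = 0.900).

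Of 14 transcription factors of the lineage, all tested, 1 rose, 0 fell and 13 did not pass, where 3.37% of all tested genes passed. The median log2 change was 0.03, and it was below 0 without aged replicate 3 or young replicate 2. The factor that rose was Irf4, which a subset of dendritic cells and also lymphocytes use. Its normalised log2 signals were -3.54, -3.56 and -3.52 on the aged arrays, against -5.00, -4.67 and -4.65 on the young arrays. Its log2 change was 1.23 ± 0.12 (limma adjusted p = 0.00442), and the call held whichever array was left out. With no filter on dim probes, under which 16 genes passed in all, Irf4 (adjusted p = 0.0667) and the macrophage, dendritic cell, monocyte and leukocyte genes Trem2, C1qc, Ccr7, Spn and Cd53 (0.125 to 0.196) were not called. With no scaling between arrays, C1qc (adjusted p = 0.867), Spn (0.246) and Cd53 (0.178) were not called, while Irf4, Trem2 and Ccr7 were. Spi1, which encodes PU.1, had a log2 change of 0.84 ± 0.21 (adjusted p = 0.0772), and Relb, a nuclear factor kappa B subunit of mature dendritic cells, of 0.45 ± 0.13 (adjusted p = 0.124). The directions were mixed, with 7 of the 14 changes above 0, against 47.2% of all tested genes. Over all tested genes, 21.9% did not overlap between the ages, 10.4% with aged kidney higher. Without overlap, 4 of these factors were higher and 3 lower in aged kidney. The 3 lower, named after their values were seen, were Cebpa, a factor of myeloid precursors, at -0.75 ± 0.22 (adjusted p = 0.124), Batf3, which cross-presenting dendritic cells need, at -0.51 ± 0.17 (adjusted p = 0.173) and Irf5, a factor of inflammatory macrophages, at -0.37 ± 0.13 (adjusted p = 0.205).

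Most other macrophage genes had changes above 0, and few passed. Of 19 tested, 2 rose, 0 fell and 17 did not pass, with 17 changes above 0 and a median of 0.47, which was 0.28 without young replicate 1. Over all tested genes 1.98% passed as higher, 47.2% had a change above 0, and the median was -0.01. Without overlap between the ages, 10 of the 19 were higher and 1 was lower in aged kidney. Of all tested genes 10.4% were higher without overlap. Trem2, a lipid-sensing receptor of macrophages, had values of -1.53, -1.19 and -1.06 on the aged arrays, against -3.27, -3.00 and -2.22 on the young arrays. It rose by 1.57 ± 0.26 (limma adjusted p = 0.0241), and 2 of the 6 fits that left out an array kept the call, with adjusted p up to 0.104. C1qc, a chain of complement C1q that macrophages make, rose by 0.68 ± 0.14 (adjusted p = 0.0462) and lost the call in each of the 6, with quantile normalisation (0.0523) and with slide columns as a block (0.0608). C1qa, another chain, had a log2 change of 0.57 ± 0.13 (adjusted p = 0.0678).

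Of 13 other dendritic cell genes tested, 1 rose, 0 fell and 12 did not pass, with a median of 0.32. Over all tested genes 1.98% passed as higher. Ccr7, the chemokine receptor that guides mature dendritic cells and lymphocytes to lymph nodes, had values of -2.20, -2.61 and -2.85 on the aged arrays, against -3.68, -3.73 and -4.08 on the young arrays. It rose by 1.28 ± 0.19 (limma adjusted p = 0.0149), and the adjusted p was 0.0670 without aged replicate 2. Clec9a, a receptor for dead cells on cross-presenting dendritic cells, had a log2 change of 0.72 ± 0.16 (adjusted p = 0.0539), and Cd209a, a lectin related to human DC-SIGN, of 0.79 ± 0.20 (adjusted p = 0.0875). Of 9 monocyte genes tested, 1 rose, 0 fell and 8 did not pass, where 1.98% of all tested genes passed as higher. The monocyte median was 0.33. It was 0.62 and 0.56 without aged replicates 2 and 3 and 0.21 without young replicate 2. The gene that rose was Spn, the sialophorin CD43 of non-classical monocytes and T cells, which rose by 0.96 ± 0.15 (adjusted p = 0.0170) and kept the call in 2 of the 6 fits that left out an array. Treml4, a receptor of non-classical monocytes, had a log2 change of 0.84 ± 0.19 (adjusted p = 0.0635), and Ccr2, the receptor of classical monocytes, of 0.81 ± 0.19 (adjusted p = 0.0643). Changes were above 0 for 7 of the 9, against 47.2% of all tested genes. Below 0 were Nr4a1 at -0.05 ± 0.36 (adjusted p = 0.960) and Plac8 at -0.16 ± 0.13 (adjusted p = 0.564), both with overlap between the ages.

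Markers of other blood-derived cells were also measured. Signals were summed over each list in units of the array's 75th percentile. The lymphocyte sum was 4.10 to 5.22 on the aged arrays and 2.62 to 2.96 on the young arrays. Of 10 lymphocyte markers tested, 9 had changes above 0, against 47.2% of all tested genes. In this list 4 rose, where 1.98% of all tested genes passed as higher. The 4 were Cd2 (log2 change 1.16), Cd5 (0.71), the B cell gene Ms4a1 (1.35) and Cd3d (0.92), and of the 6 fits that left out an array Cd2 kept its call in 5, Cd5 in 4, Ms4a1 in 1 and Cd3d in 0. With quantile normalisation Ms4a1 (adjusted p = 0.0660) and Cd3d (0.0755) were not called, nor were Cd2 (0.0533), Ms4a1 (0.114) and Cd3d (0.0830) with slide columns as a block or Cd5 with normexp (0.132) and a trended robust variance (0.0920). With no filter none of the 4 was called (0.0980 to 0.221), and with no scaling Cd2, Cd5 and Cd3d were not (0.0661 to 0.792). Cd79a was not tested, being well above background on 0 aged arrays and 1 young array. Of 7 pan-leukocyte markers tested, 1 passed, Cd53 (1.01, adjusted p = 0.0217), where 1.98% of all tested genes passed as higher. All 7 had changes above 0, with a median of 0.50. The ages did not overlap for 5 of the 7, all with aged kidney higher, against 10.4% of all tested genes. The summed signal was 10.86 to 14.93 on the aged arrays and 8.03 to 10.94 on the young arrays, so the ages overlapped. Cd52 was the brightest of the 7, and its ages overlapped (log2 change 0.30, adjusted p = 0.480). Cd53 kept its call in 2 of the 6 fits that left out an array. Coro1a and Itgb2, also of this list, had log2 changes of 0.65 (adjusted p = 0.0515) and 0.67 (adjusted p = 0.0642). Of 6 neutrophil markers tested with limma, 0 were called and 0 had an unadjusted p under 0.05. Over all tested genes 3.37% passed and 17.1% reached that unadjusted p. With 6 genes, counts of 0 cannot be told apart from these shares. The summed signal of the neutrophil list was 11.7 to 13.7 on the aged arrays and 11.4 to 12.4 on the young arrays. That sum was mostly the bright probe of Csf3r (log2 change 0.02), so it describes the other neutrophil markers poorly. Of these, Retnlg, Ltf and S100a8 had log2 changes of 0.58, -0.30 and 0.38 (adjusted p = 0.331, 0.362 and 0.563). Mpo and Ngp, granule genes of neutrophil precursors, were well above background on no array. Itgax, Lyz2, Irf4, Ccr7 and Spn are used by cells outside the macrophage and dendritic lineages too, and the part of lymphocytes and other leukocytes in these changes was not tested.

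**Figure D4:**
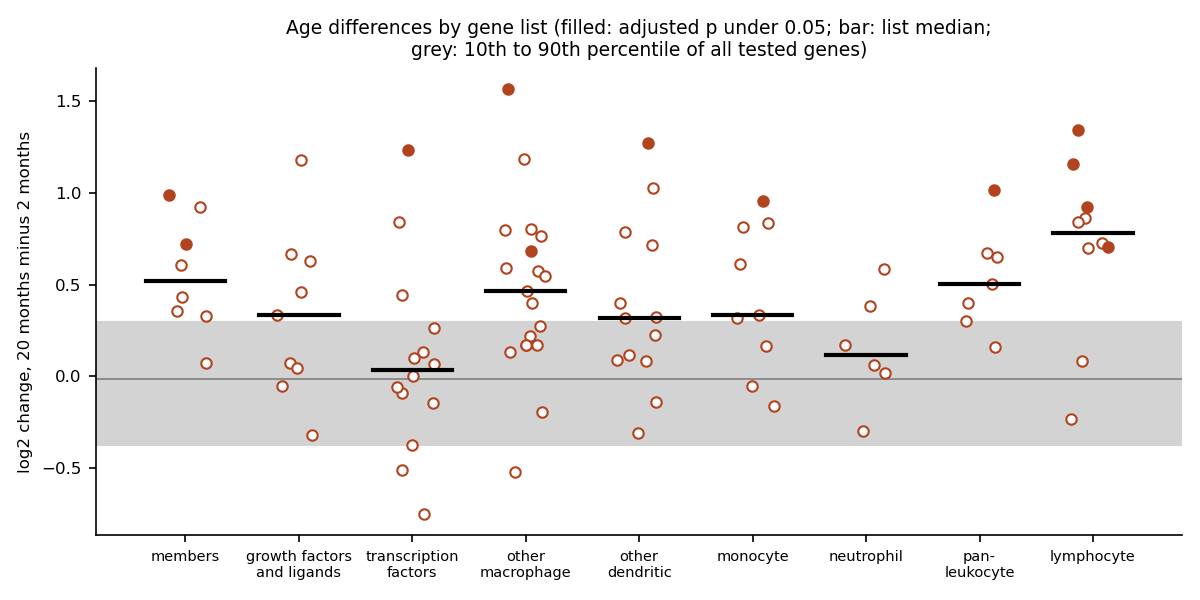
Log2 change (aged minus young) of every tested gene of the members and of each gene list, 1 point a gene, filled where it passed the threshold, with a bar at the list median and a grey band for the middle range of all tested genes. The medians of the members and of the macrophage, dendritic cell, monocyte, pan-leukocyte and lymphocyte lists lie between 0.32 and 0.78, and those of the transcription factors and neutrophil markers are 0.03 and 0.11.

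**Figure D5:**
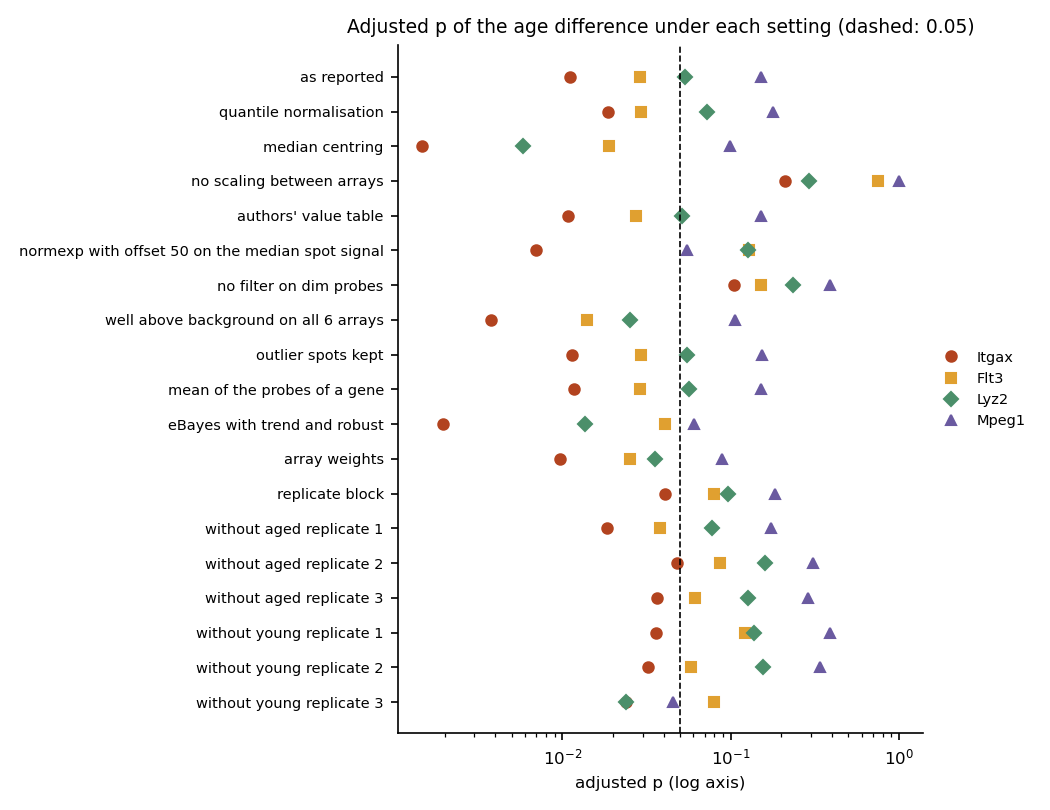
Limma adjusted p (x axis, log scale, dashed line at 0.05) of the age difference of Itgax, Flt3, Lyz2 and Mpeg1 as reported (top) and under the 18 alternatives. Itgax lies left of the line except with no scaling (0.210) and no filter (0.104), Flt3 lies on both sides, and Lyz2 lies to the right as reported (0.0539) and to the left under 5 alternatives.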

How the data were processed

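Total RNA of 3 aged (20 months) and 3 young (2 months) kidneys was hybridised to Agilent single-colour arrays, with random-primed Cy3 labelling by Klenow enzyme, per the labels' protocols. Per the file headers, the deposited signal intensity was quantified with Agilent Feature Extraction 11.5.1.1, with background subtraction and spatial detrending inside each array, on a linear scale, on a grid annotated on build mm9, and arrays were not scaled to each other. The authors' deposited value table is on the log2 scale and equals the log2 intensity per probe minus 1 constant per array, so its scale and direction are known. Its column medians were -3.98, -4.19 and -4.24 on the aged and -3.98, -4.07 and -4.24 on the young arrays. The deposited flags, a 0 or 1 per spot, mark spots well above background, saturated (0 spots) or outliers, per the file headers.

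Control and outlier-flagged spots were left out, log2 values of repeated spots were averaged per probe, and each array's 75th percentile was subtracted. A probe entered the test if every array of 1 age or the other was well above background, which 30826 of 55681 met. Symbols came from RefSeq transcript accessions (26762 probes named, 20284 genes). A gene was its probe with the highest mean over the 6 arrays, which left 14549 genes. Of these, 491 passed, 288 of them higher in aged kidney. Tools were R 4.3.3, limma 3.58.1 (lmFit and eBayes), version 1.17.8 of data.table, jsonlite 2.0.0, Python 3.11.15, numpy 2.4.6 and matplotlib 3.10.9. The fit was tested on simulated data.

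The members and gene lists were chosen with earlier results of these data known, so no count over them is independent support. The genes named were all members, the called genes of each list, or its 3 smallest p where fewer were called, Lyz1, and the 5 genes nearest to the members' median profile; Flt3l and Cx3cl1 were added as ligands. Mpo, Ngp, Cd79a, Csf3r, Cd52, Umod, Nphs1, Cebpa, Batf3, Irf5, Csf2rb, Csf2ra, Nr4a1 and Plac8 are named outside this rule, after their values were seen. Probe coordinates are not given, since the array and RefSeq builds differ. Alternatives were other scalings, background correction, filters, variance models, array weights, the replicate number as a block, the authors' values and leaving out each array. Normexp was run on the median spot signal. Same-numbered aged and young arrays deviated from their group means with correlations of 0.06, -0.09 and 0.10 over genes, so the numbers were not taken to pair the samples. These correlations do not test an effect of the slide column, which same-numbered arrays shared.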

Additional observations from a re-analysis of the deposited data

How the results depend on the processing

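Over the 18 alternatives the median log2 change of the tested members stayed between 0.34 and 0.68. Of all tested genes, 491 passed with the main processing, 800 with median centring (433 higher, 367 lower), 308 with normexp background correction, 201 with no scaling between arrays, 16 with no filter on dim probes, and 141 to 922 when an array was left out. The member count of 2 became 0 with no scaling and with no filter, 1 with normexp, and lay between 1 and 3 when an array was left out. Flt3 lost its call with no scaling (0.72, limma adjusted p = 0.748), no filter (0.72, 0.152) and normexp (0.56, 0.129), and its change was 0.63 to 0.79 when an array was left out. Itgax lost its call with no scaling (0.99, 0.210) and no filter (0.99, 0.104). Lyz2 passed with median centring (0.97, 0.00582), a filter for signal on all 6 arrays (0.93, 0.0253), trended robust variance (0.93, 0.0136) and array weights (1.04, 0.0356), and its change was 0.73 to 1.15 when an array was left out, as Mpeg1's was 0.43 to 0.82. Csf1r, also as its first probe, turned to -0.067 with normexp, and another of its probes to -0.0054 with normexp, -0.032 with array weights, and values between -0.038 and 0.211 when an array was left out. The median of the transcription factor list ran between -0.017 and 0.059 when an array was left out. With the replicate block, which is also the slide column, 266 genes and 1 member passed, and Flt3 did not (0.72, adjusted p = 0.0795). The causes were not tested. Dim probes limit Cd163, the second Flt3 probe and the second Mpeg1 probe.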

Other observations

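The 5 genes outside the members whose centred values over the 6 arrays lay nearest to the members' median profile were Ms4a6c, Pf4, Alox5ap, Was and Il34, chosen from 14549 tested genes by the root mean square difference, which was 0.05 to 0.07 on the log2 scale. Mpeg1, itself a member of the profile, lay at 0.07 and Csf1r, the farthest member, at 0.28. Ms4a6c had a log2 change of 0.60 ± 0.17 (limma adjusted p = 0.119), Pf4, the platelet chemokine, of 0.65 ± 0.18 (adjusted p = 0.110) and Alox5ap, which presents arachidonic acid to the leukotriene-forming enzyme, of 0.65 ± 0.15 (adjusted p = 0.0692). Was, an actin regulator of blood cells, had a log2 change of 0.58 ± 0.20 (adjusted p = 0.191). None of the 5 passed the test. They were chosen for closeness to a profile that was higher on the aged arrays, so changes above 0 follow from that choice.

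Of the 8 tested blood genes, 1 passed, against 3.37% of all tested genes. The gene was Ppbp, a platelet chemokine, which rose by 0.69 ± 0.14 (limma adjusted p = 0.0406). Ppbp lost its call in each of the 6 fits that left out an array. The red cell gene Hba-a2 had a log2 change of -0.42 ± 0.12 (adjusted p = 0.119), and the summed signal of the blood list was 57.7 to 65.9 on the aged arrays and 68.6 to 71.2 on the young arrays. Of the 12 kidney markers tested with limma, 0 passed and 2 had an unadjusted p under 0.05, a share near the 17.1% of all tested genes, with a median of -0.16. Calb1, the calcium-binding protein of the distal tubule, had a log2 change of -0.70 ± 0.17 (adjusted p = 0.0692), Slc12a3, the sodium chloride transporter of the same segment, of 0.37 ± 0.12 (adjusted p = 0.180) and Slc12a1, the transporter of the thick ascending limb, of -0.25 ± 0.11 (adjusted p = 0.318).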
